A study of Rattus norvegicus with 12 samples.

Results

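The contractile filament genes of smooth muscle described here are 10 genes: Tagln, Cnn1, Smtn, Lmod1, Myocd, Mylk, Actg2, Tpm2, Myl9 and Des. They were chosen by name, with earlier results of these data known, so the counts below do not come from a list blind to the data. The array probes were found by matching each probe's RefSeq accession to its current rat symbol, so that 10 of the 13903 genes with a symbol on the array are members. Each of the 10 was read by 1 probe with 1 spot. That spot was well above background on all 12 arrays and was saturated on none. The study used 12 Agilent arrays with 1 colour to profile rat veins, in 4 groups of 3 arrays: day 0, vein from control rats that had no operation, and days 7, 14 and 28 after an external jugular vein was grafted as a bypass into the carotid artery. All rats were male, and the labels name no strain, age, drug or genetic change. The vessel was assayed whole, so the RNA comes from every cell type of the wall and of any tissue attached to it, and a loss of smooth muscle cells cannot be told apart from less contractile RNA in each cell. The submitters call the 3 experiments of each graft day independent, but no label ties an array to 1 animal, so p-values here cover only the spread between arrays, part of which may be technical.

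Smooth muscle cells shorten when myosin pulls on actin filaments. Calcium and calmodulin switch on a kinase that phosphorylates the myosin regulatory light chain, while proteins lying along the actin filament set how readily myosin can act. Much of this gene set is switched on by serum response factor with its coactivator myocardin. Vein grafts exposed to arterial flow are known for thickening of the wall, in which smooth muscle cells of a less contractile form take part.

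Promoter windows are shown for 4 members because these genes share a direction of change and because serum response factor is known to bind a DNA element, the CArG box. RefSeq promoters on GRCr8 were at hand for 6 of the 10 members (Actg2, Tpm2, Cnn1, Des, Mylk and Smtn), and each window holds the 250 bases before the annotated start, 5′ to 3′ on the strand of the gene. Capitals mark GGGCGG, a GC box of the kind bound by Sp and Klf factors, read on either strand, and CATTCC, the core of the element bound by Tead factors.
Cnn1 promoter, chr8:28908187-28908436, + strand: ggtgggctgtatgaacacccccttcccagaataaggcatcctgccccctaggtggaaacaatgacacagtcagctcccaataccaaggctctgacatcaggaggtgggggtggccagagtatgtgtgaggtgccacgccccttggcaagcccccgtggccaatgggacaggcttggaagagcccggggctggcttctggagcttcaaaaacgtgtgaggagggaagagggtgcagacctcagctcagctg
Mylk promoter, chr11:79498575-79498824, - strand: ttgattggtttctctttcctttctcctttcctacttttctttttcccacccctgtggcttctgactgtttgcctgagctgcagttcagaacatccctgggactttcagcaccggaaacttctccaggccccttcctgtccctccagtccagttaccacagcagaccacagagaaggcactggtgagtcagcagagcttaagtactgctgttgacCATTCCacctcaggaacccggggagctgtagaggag
Des promoter, chr9:84299376-84299625, + strand: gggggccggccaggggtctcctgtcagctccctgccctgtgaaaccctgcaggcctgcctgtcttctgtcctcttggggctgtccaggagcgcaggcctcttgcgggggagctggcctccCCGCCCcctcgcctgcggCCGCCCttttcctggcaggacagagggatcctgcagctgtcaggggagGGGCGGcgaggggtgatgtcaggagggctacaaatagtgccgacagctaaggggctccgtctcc
Tpm2 promoter, chr5:62575727-62575976, - strand: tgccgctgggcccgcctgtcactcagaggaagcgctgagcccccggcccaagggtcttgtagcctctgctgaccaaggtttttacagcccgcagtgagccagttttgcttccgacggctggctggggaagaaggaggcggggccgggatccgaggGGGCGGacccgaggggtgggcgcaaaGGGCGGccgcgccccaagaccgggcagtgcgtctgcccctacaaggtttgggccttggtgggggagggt
A full CArG box was found in 0 of the 6 windows, and 1.50% of the 33469 rat promoters in the table hold one. GGGCGG was present in 3 of 6, those of Tpm2, Des and Smtn, against 30.5% of all promoters. CATTCC was present in the Mylk window alone, at bases -36 to -31 from the start, against 12.1% of all promoters. The TATA box TATAAA was in 0 of the 6, against 12.9% of all promoters. An E box, read here as CACGTG, was in 0 of the 6 as well, against 5.59%. Motifs were searched on both strands, and no motif overlapped another in these windows. These matches describe letters in a short window and say nothing of where any factor binds.

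All levels below are log2 signals relative to the 75th percentile of the same array, so that 1 unit is a doubling. A gene was called changed when limma gave a Benjamini-Hochberg adjusted p under 0.05 over 21063 probes. Compared with day 0, all 10 members were lower at day 7 (15.4% of all probes tested were called lower), all 10 were lower at day 14 (17.4%), and 9 of 10 were lower at day 28 (16.5%). No member was called higher than day 0, where 17.7%, 20.1% and 17.4% of probes were at days 7, 14 and 28, and 22.5% over the graft days together. The graft and day 0 arrays did not overlap for 9 members at day 7, all but Smtn (20.1% of probes were lower without overlap), 10 at day 14 (25.2%) and 10 at day 28 (24.4%). The median member change was -3.49 at day 7, -3.56 at day 14 and -2.80 at day 28, beside medians over all probes of -0.026, 0.021 and 0.0092. The 9 graft arrays together, against the 3 day 0 arrays, gave 10 of 10 called lower, where 20.7% of probes were. The mean over the 10 members was 6.42 ± 0.41 at day 0, 3.34 ± 0.62 at day 7, 2.69 ± 0.40 at day 14 and 3.68 ± 0.10 at day 28 (SD, n = 3).

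The arrays had been read in 4 scans, and scans and days overlap only in part. Scan 1 held 1 day 28 array and 2 day 0 arrays, and there all 10 members were lower at day 28 than at day 0, by a median of -2.80 (range -4.79 to -1.27). No scan held both a day 7 or day 14 array and a day 0 array. With scan as a fixed block the day 28 differences from day 0 are those of scan 1 again, so they are no separate support. Day 0 replicate 3 was the only array of scan 2 and adds nothing to them. Days 7 and 14 reach day 0 in that fit only through arrays of other days that share a scan. All 10 members had the same sign as without the block in each comparison with day 0, with medians of -3.22, -3.46 and -2.80 at days 7, 14 and 28. There 0, 4 and 4 members were still called, the 4 at days 14 and 28 being Mylk, Myl9, Des and Lmod1. Calls fell over the whole array in that fit, which called 0.266%, 4.91% and 6.48% of all probes in either direction at days 7, 14 and 28, against 33.1%, 37.5% and 33.9% without the block. With scan as a random block the counts of members were 9, 10 and 9, beside 26.0%, 34.5% and 32.0% of all probes.

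**Figure D1:**
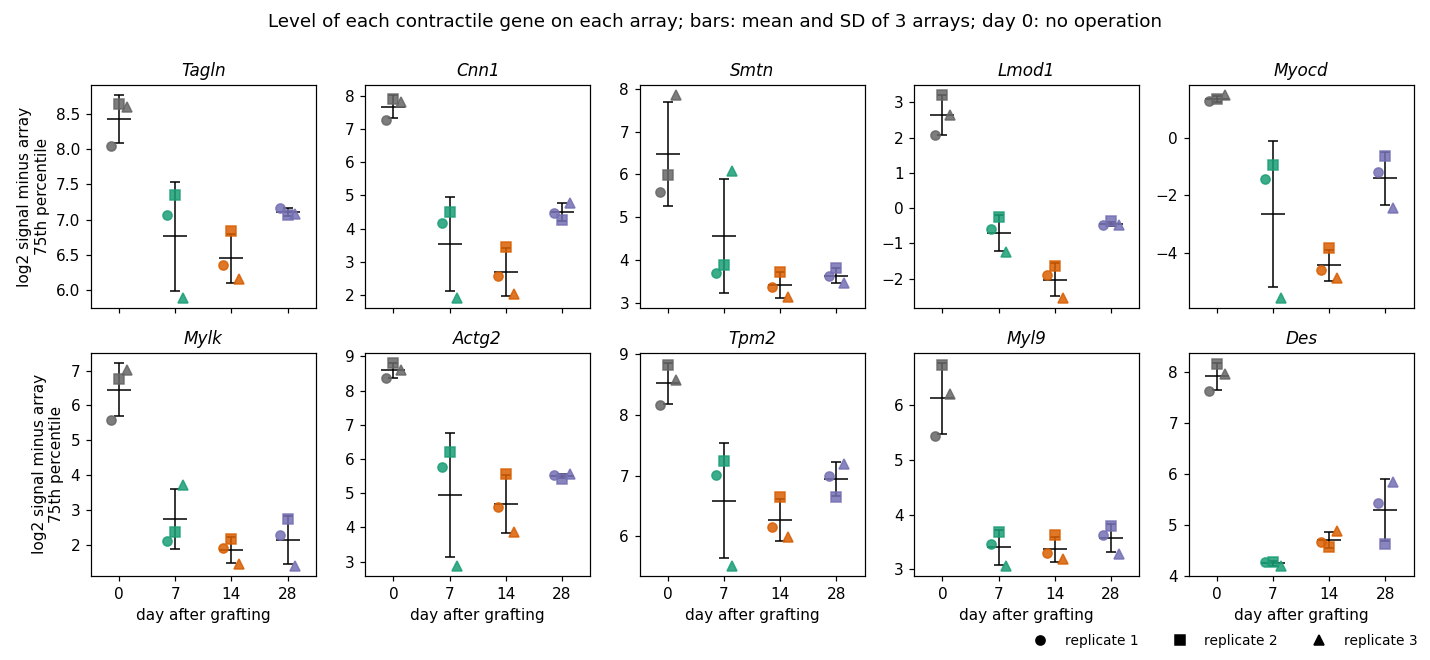
Log2 signal relative to the array's 75th percentile for each of the 10 genes on each array, by day after grafting (day 0, no operation). Points are arrays, with shapes for replicates 1 to 3, and bars are the mean and SD of 3 arrays. In the Smtn panel day 7 replicate 3, at 6.09, reaches into the day 0 range.

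Several members lie along the actin filament or tie to it. Cnn1, calponin, binds actin and tropomyosin and restrains myosin's ATPase. It was at 7.27, 7.92 and 7.83 in the day 0 arrays, 4.17, 4.51 and 1.90 at day 7, 2.56, 3.46 and 2.03 at day 14, and 4.46, 4.26 and 4.78 at day 28. The day 0 arrays lay far above every graft array, and day 7 replicate 3 lay below all 3 day 14 arrays. The change from day 0 was -4.15 ± 0.61 at day 7, -4.99 ± 0.61 at day 14 and -3.17 ± 0.61 at day 28 (standard error, limma adjusted p = 0.000702, 0.00018 and 0.00339), that is 17.7-fold, 31.8-fold and 8.99-fold lower. Without day 7 replicate 3 the day 7 value was 10.1-fold lower (limma adjusted p = 0.000309).

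Tagln, transgelin or SM22, is an actin-bundling protein used as an early marker of smooth muscle. Its levels were 8.04, 8.65 and 8.60 at day 0, 7.07, 7.34 and 5.88 at day 7, 6.36, 6.84 and 6.15 at day 14, and 7.17, 7.07 and 7.08 at day 28. No graft array reached the day 0 range, but the distance was small beside that of Cnn1. Tagln was 3.18-fold lower at day 7, 3.96-fold lower at day 14 and 2.51-fold lower at day 28 than at day 0 (limma adjusted p = 0.00527, 0.00172 and 0.0163). Tpm2, a tropomyosin that runs along the actin groove and is shared with skeletal muscle, behaved alike: its levels were 8.16, 8.83 and 8.57 at day 0, 7.01, 7.24 and 5.51 at day 7, 6.15, 6.65 and 5.98 at day 14, and 6.99, 6.65 and 7.19 at day 28. The groups again did not overlap, and Tpm2 was 3.82-fold, 4.79-fold and 2.99-fold lower than at day 0 (limma adjusted p = 0.0055, 0.00198 and 0.015). Both genes missed the threshold at days 7 and 28 under quantile normalization, normexp correction (also quantile normalized) and the authors' deposited table. At day 28 Tagln was then -0.58 at its smallest and Tpm2 -0.78, against -1.33 and -1.58 in the values above.

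Smtn, smoothelin, is an actin-associated protein of contractile smooth muscle. It was at 5.60, 5.98 and 7.85 at day 0, 3.71, 3.89 and 6.09 at day 7, 3.38, 3.74 and 3.13 at day 14, and 3.64, 3.82 and 3.48 at day 28. Replicate 3 was the high array at both day 0 and day 7, and at day 7 it lay above both of the lower day 0 arrays, so those groups overlapped. These arrays, day 7 replicate 3 and day 0 replicate 3, had 393 and 460 spots flagged as non-uniform, while the other 10 arrays had 2 to 11. Smtn differed from day 0 by -1.91 ± 0.67 at day 7, -3.06 ± 0.67 at day 14 and -2.83 ± 0.67 at day 28 (standard error, limma adjusted p = 0.0493, 0.00516 and 0.00927). The day 7 call stands at the edge: it was kept in 9 of 24 alternative settings, among which the setting that averages probes repeats the main fit. Leaving out either of those arrays moved it in opposite directions, to -1.23 without day 0 replicate 3 (limma adjusted p = 0.139) and to -2.68 without day 7 replicate 3 (limma adjusted p = 0.0058). Without both the change was -1.99 (limma adjusted p = 0.000453), and the highest adjusted p was 0.793, with scan as a fixed block. Without day 0 replicate 3 the change was -2.37 at day 14 and -2.15 at day 28, and both were still called.

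Actg2 forms the thin filament, Lmod1 seeds it, and Des ties filaments to one another. Actg2, the smooth muscle gamma-actin, was at 8.37, 8.81 and 8.59 at day 0, 5.77, 6.19 and 2.87 at day 7, 4.60, 5.56 and 3.88 at day 14, and 5.54, 5.42 and 5.55 at day 28. Day 7 replicate 3 was the lowest of all 12 arrays, and the day 28 arrays spanned little. Compared with day 0, Actg2 was 12.5-fold lower at day 7, 15.1-fold at day 14 and 8.50-fold at day 28 (limma adjusted p = 0.00396, 0.00224 and 0.00955). The day 7 value depended on single arrays: it was 6.10-fold lower without day 7 replicate 3 and 19.3-fold lower without day 7 replicate 2, and was called in both. The actins are nearly identical in their coding sequence and the probe's letters were not used here, so signal from other actins on this probe was not tested.

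Lmod1, leiomodin, seeds actin filaments in smooth muscle. Its levels were 2.07, 3.20 and 2.64 at day 0, -0.59, -0.26 and -1.25 at day 7, -1.91, -1.65 and -2.56 at day 14, and -0.49, -0.38 and -0.48 at day 28. All 4 days were separate except days 7 and 28, which overlapped, and day 14 was the lowest. Lmod1 was 10.1-fold lower at day 7, 25.6-fold lower at day 14 and 8.52-fold lower at day 28 than at day 0 (limma adjusted p = 9.25e-05, 1.04e-05 and 0.000209).

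Des, desmin, is the intermediate filament protein of all muscle types. It was at 7.63, 8.15 and 7.96 at day 0, 4.26, 4.27 and 4.19 at day 7, 4.67, 4.57 and 4.87 at day 14, and 5.42, 4.63 and 5.83 at day 28. Its mean was lowest at day 7, where the 3 arrays lay between 4.19 and 4.27, whereas the mean of each of the other 9 members was lowest at day 14. The change was -3.67 ± 0.28 at day 7, -3.21 ± 0.28 at day 14 and -2.62 ± 0.28 at day 28 (standard error, limma adjusted p = 1.56e-05, 2.62e-05 and 0.000155).

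The myosin side is represented by the kinase and its substrate. Mylk, the myosin light chain kinase, was at 5.58, 6.77 and 7.01 at day 0, 2.09, 2.37 and 3.71 at day 7, 1.90, 2.17 and 1.45 at day 14, and 2.27, 2.74 and 1.38 at day 28. Day 7 replicate 3 was the highest graft array for this gene, yet still below day 0. Mylk was 13.2-fold lower at day 7, 24.4-fold at day 14 and 20.0-fold at day 28 (limma adjusted p = 0.000509, 0.00011 and 0.000292). Myl9, the regulatory light chain that this kinase phosphorylates, was at 5.44, 6.74 and 6.20 at day 0, 3.47, 3.69 and 3.06 at day 7, 3.29, 3.62 and 3.19 at day 14, and 3.63, 3.80 and 3.29 at day 28. Its graft arrays lay close together at all 3 times, and Myl9 was 6.57-fold, 6.76-fold and 5.87-fold lower than at day 0 (limma adjusted p = 0.000177, 0.000123 and 0.000345).

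Myocd encodes myocardin, the coactivator of serum response factor that drives contractile genes. Its levels were 1.26, 1.32 and 1.47 at day 0, -1.45, -0.94 and -5.58 at day 7, -4.61, -3.83 and -4.88 at day 14, and -1.18, -0.64 and -2.43 at day 28. All graft arrays lay below day 0, and the day 14 arrays and day 7 replicate 3 formed the low end. Those spots were dim, with intensities of 31.2, 44.4 and 24.9 at day 14 and 14.1 on day 7 replicate 3. The size of the change is therefore uncertain there. The change was -4.01 ± 1.00 at day 7 and -5.79 ± 1.00 at day 14 (standard error, limma adjusted p = 0.0116 and 0.00141). The day 7 change was -2.55 without day 7 replicate 3, -4.61 without replicate 1 and -4.87 without replicate 2, and was called in each. At day 28 it was -2.77 ± 1.00, which missed the threshold (limma adjusted p = 0.0553). That day 28 p ran from 0.00139 to 0.217 over 24 alternative settings, of which 9 called Myocd lower.

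**Figure D2:**
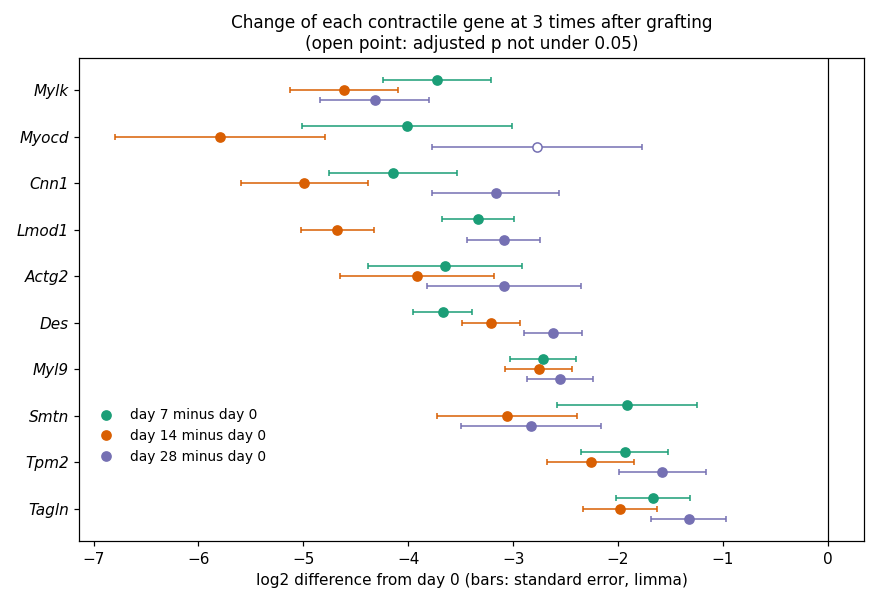
Log2 difference from day 0 of each of the 10 genes at days 7, 14 and 28, with the standard error from limma, ordered by the mean over the graft days. Filled points passed the adjusted p threshold of 0.05, and the open point, Myocd at day 28 (-2.77), did not. Mylk at -4.22 and Tagln at -1.66 mark the ends of the order of graft-day means.

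Averaged over the graft days, the members fell into an order. Mylk (-4.22), Myocd (-4.19), Cnn1 (-4.10), Lmod1 (-3.70) and Actg2 (-3.55) changed most, followed by Des (-3.17), Myl9 (-2.68) and Smtn (-2.60), with Tpm2 (-1.93) and Tagln (-1.66) last. The place of Myocd depends on the processing, since its value ran from -5.37 to -3.08 over the alternative settings. Each member was then set, array by array, against the median of the other 9 members, a contrast that does not depend on how arrays were scaled. None of the 10 differed between the 9 graft and the 3 day 0 arrays after adjustment over the members (exact two-sided permutation test). Before adjustment 3 had p under 0.05. They were Tagln, 1.56 higher relative to the others in graft than in day 0 arrays, Tpm2, 1.29 higher, and Myl9, 1.01 higher, each with an adjusted p of 0.0606 (exact permutation test). The smallest p this design allows is 0.00909, which adjusts to 0.0909 where 1 member alone reaches it, so this test could not have called a single member that differed from the rest.

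Later graft days were also set against earlier ones. Between day 14 and day 7 none of the 10 members was called (1.88% of all probes were called lower and 1.38% higher), and their median change was -0.59. Only Lmod1 had p under 0.05 before adjustment, -1.34 ± 0.35 (standard error, limma adjusted p = 0.0717). In the scan that held 1 day 14 and 3 day 7 arrays, 9 members were lower at day 14 and 1, Des, was higher, with a median of -0.63. Between day 28 and day 14, Lmod1 alone was called, 1.59 ± 0.35 higher (standard error, limma adjusted p = 0.0327), where 2.4% of probes were called higher and 2.08% lower, and the other 9 members were higher by 0.20 to 3.02 without passing. Within the scan that held 2 arrays of each of these days all 10 members were higher at day 28, by a median of 0.66 (0.29 to 3.45). The day 28 arrays lay wholly above the day 14 arrays for 4 members, Tagln, Cnn1, Lmod1 and Myocd (22.7% of probes did so). Between day 28 and day 7 none was called (0.75% of probes were called higher and 1.03% lower), and Des had p under 0.05 before adjustment, 1.05 ± 0.28 higher (standard error, limma adjusted p = 0.091).

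One array weighed on these comparisons. Day 7 replicate 3 was the lowest of the 3 day 7 arrays for Cnn1, Tagln, Tpm2, Actg2, Lmod1, Myocd, Myl9 and Des, and the highest for Smtn and Mylk. Without it, 3 members were lower at day 14 than at day 7: Myocd by -3.24 ± 0.49, Cnn1 by -1.66 ± 0.39 and Lmod1 by -1.62 ± 0.35 (standard error, limma adjusted p = 0.00403, 0.0381 and 0.0263). Calls over all probes in that comparison were also more frequent without the array, at 6.0%, against 3.26% with it. The same 3 then passed as higher at day 28 than at day 14, by 3.02, 1.82 and 1.59 (limma adjusted p = 0.00352, 0.0119 and 0.0134). The array left out is of neither day, so these differences equal those with it. Only the pooled estimate of spread and the calls changed. Of all probes 10.8% were then called, against 4.48% with the array. The day 28 call of Lmod1 against day 14 is itself weak: it was lost with scan as a fixed block (adjusted p = 0.158) and without day 7 replicate 1 or any 1 of the 6 day 14 and day 28 arrays.

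The families to which the members belong have relatives in non-muscle and in striated cells. Of 29 such relatives listed, 20 were measured and tested. Over the graft days 5 were called lower, 6 were called higher and 9 did not pass, with a median of 0.27; these counts lie near the 20.7% of all probes called lower and the 22.5% called higher in the same comparison. Tpm2 and Tpm1, tropomyosins of contractile muscle, were at -1.93 and -1.25, whereas Tpm3 and Tpm4, which are widespread in non-muscle cells, rose by 1.30 and 2.44. Vim, the intermediate filament protein vimentin, was at 0.40 (limma adjusted p = 0.0619) and Nes, nestin, rose by 2.27, beside -3.17 for Des. Cnn3, the calponin found outside muscle, was at 0.0086, and the non-muscle light chains Myl12a and Myl12b were at 0.053 and 0.39, none of which passed. The cytoplasmic actins Actb and Actg1 were at -0.16 and 0.15, also without passing.

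Members were also set against their relatives array by array, which removes the scaling of arrays. The 18 pairs, all with a relative above background at day 0, were chosen after their values were seen. Their differences are thus a description and were given no test. Every member in these pairs fell, by -1.66 for Tagln to -4.22 for Mylk, where the median over all probes was -0.0032. A lower change of the member would thus be usual beside most genes, so a count of such pairs is no result about relatives. Des and Actg2 each enter several pairs, so the pairs are not separate. The member's change over the graft days was the lower one in 17 pairs, and the median difference of changes was -3.15 (-5.44 to 0.39). It was -4.37 for Tpm2 against Tpm4, -5.44 for Des against Nes, -4.11 for Cnn1 against Cnn3, -3.39 for Actg2 against Actb and -2.73 for Myl9 against Myl12a. The smallest differences were -0.19 for Mylk against Mylk3, a kinase of heart muscle, 0.39 for Des against Synm, the muscle protein synemin, -0.68 for Tpm2 against Tpm1, and -0.81 for Des against Prph, the neuronal filament protein peripherin. Mylk3 was above background on 2 of the 3 day 7 arrays, and that pair stood at -1.40 under normexp correction and at 0.16 in the authors' deposited table.

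Lmod2, the leiomodin of striated muscle, was well above background on none of the day 0 arrays, 2 of the day 7 arrays, 2 of the day 14 arrays and 3 of the day 28 arrays. Its mean at day 28 was at least 20.6-fold above the day 0 mean. At day 0 the lowest signal counted as above background stood in for dimmer values. The day 28 arrays were at -2.02, -3.04 and -1.37. The day 14 arrays were at -2.51, -6.37 and -1.83, and the lowest of them, replicate 2, was not well above background.

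**Figure D3:**
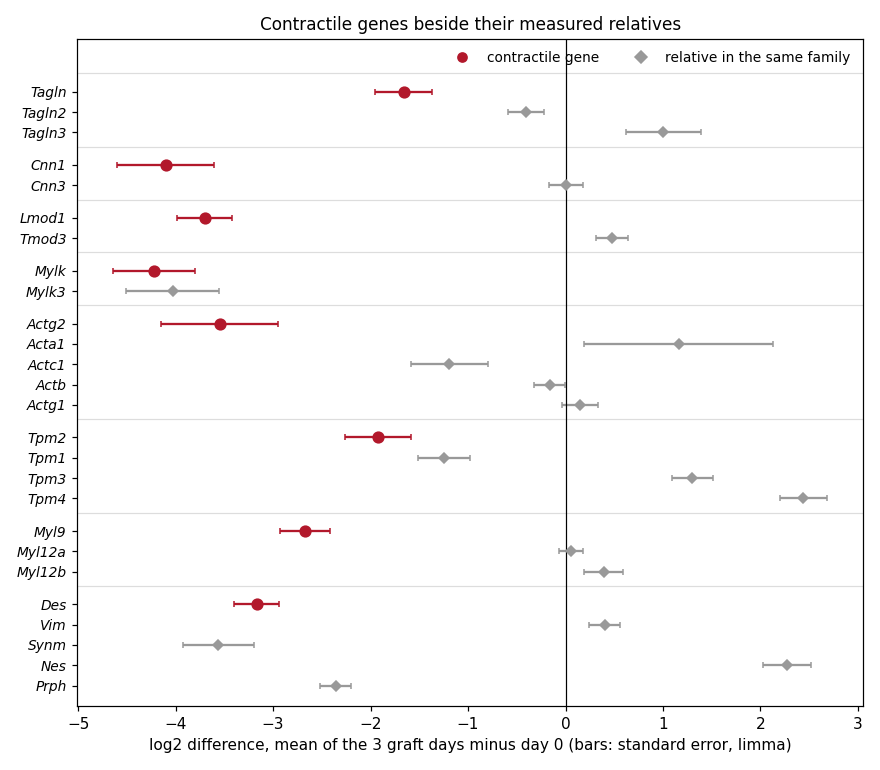
Log2 difference between the mean of the 3 graft days and day 0, with the standard error from limma, for 8 contractile genes (circles) and 18 relatives in their families (diamonds). Contractile genes lie between -4.22 and -1.66, and relatives between -4.03 for Mylk3 and 2.44 for Tpm4.

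Genes that work beside the members were followed in 4 further lists, counted over the graft days against day 0 in the fit without scan, where 20.7% of all probes were called lower and 22.5% higher. Of 20 other contractile filament and adhesion genes tested, 12 were called lower, 0 higher and 8 did not pass, with a median of -1.34. Pdlim3, an actin-associated protein of the Z line, was at -4.52 ± 0.64, Synm at -3.56 ± 0.37, Lpp, a focal adhesion protein, at -2.59 ± 0.28 and Mcam, an adhesion molecule of vessel walls, at -2.53 ± 0.29 (standard error). Acta2 and Myh11 are not analysed here. Of 12 genes that control myosin light chain phosphorylation, 8 were called lower, 2 higher and 2 did not pass, with changes from -5.01 to 1.77 and a median of -1.24. Ppp1r14a, the inhibitor CPI-17 of myosin phosphatase, fell by 5.01 on the log2 scale, and the phosphatase's targeting subunits Ppp1r12b and Ppp1r12a fell by 3.39 and 1.76.

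Of 16 regulators of the contractile programme tested, 3 were called lower, 5 higher and 8 did not pass, shares near those of all probes. Tgfb1, a growth factor that induces contractile genes in cultured smooth muscle, rose by 3.01 and its receptor Tgfbr2 by 1.32. Klf5, a factor tied to the proliferating form of smooth muscle, rose by 1.77, and Notch3, a receptor of arterial smooth muscle, fell by 1.59. Of 12 markers of synthetic or non-muscle cells, 8 were called higher, 1 lower and 3 did not pass. Spp1, osteopontin, rose by 7.08, Col8a1, a collagen of remodelling vessels, by 3.12, and Myh10, a non-muscle myosin heavy chain, by 2.28. Macrophages also make Spp1.

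Marker lists of other cell types were counted in the same comparison, against the same shares of all probes, and their part in the fall of the contractile genes was not tested. The mean level of 10 macrophage markers ran from 2.18 to 3.39 in graft arrays and from -1.43 to 0.57 in day 0 arrays, with 9 called higher. The 7 T and NK cell markers ran from -1.14 to 0.18 in graft arrays and from -2.90 to -1.74 in day 0 arrays, with 7 called higher. The 6 adipocyte markers ran from -2.98 to -1.51 in graft arrays and from 1.17 to 1.91 in day 0 arrays, with 5 called lower. Endothelial markers ran from -0.075 to 1.96 in graft arrays and from 1.62 to 2.41 in day 0 arrays, with 4 of 6 called lower. By day, 4 were called lower at day 7 (15.4% of all probes), 4 at day 14 (17.4%) and 2 at day 28 (16.5%). At day 28, 1 was called higher (17.4%), and their median change was -0.24, beside -1.61 at day 7. Over the graft days together, of 4 fibroblast markers 3 were called higher and 1 lower, and of 5 pericyte markers 2 higher and 1 lower. Of 5 Schwann cell markers 1 was called lower, and of 6 cardiac muscle markers 2 higher and 4 lower. Of the 6 smooth muscle markers listed, the 4 measured are the members Tagln, Cnn1, Smtn and Lmod1, and all 4 were above background on every array.

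Skeletal muscle markers were higher at day 28 than at day 0, while Des and Tpm2 were lower than at day 0 on every graft array. Their mean level over 11 genes was -1.53, -1.28 and -1.51 at day 0, -0.12, -0.26 and -1.56 at day 7, 1.73, -1.36 and 2.26 at day 14, and 4.92, 2.11 and 5.75 at day 28. Of the 11, 0 were called higher at day 7 (17.7% of all probes), 5 at day 14 (20.1%) and 10 at day 28 (17.4%), each against day 0. Across the 3 day 28 arrays, replicate 3 was the highest and replicate 2 the lowest for the marker mean, for Des and for Tpm2. At day 14 the arrays ranked the same way for the marker mean and Des, and the other way for Tpm2. At day 7 replicate 3 was the lowest for all 3 measures, and replicates 1 and 2 ranked one way for the marker mean and the other way for Des and Tpm2. Des and Tpm2 are themselves expressed in skeletal muscle, and how much of their graft signal comes from such tissue was not tested. Acta1, the skeletal actin, averaged 5.94 at day 28 and 1.97 at day 0 (limma adjusted p = 0.0261).

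**Figure D4:**
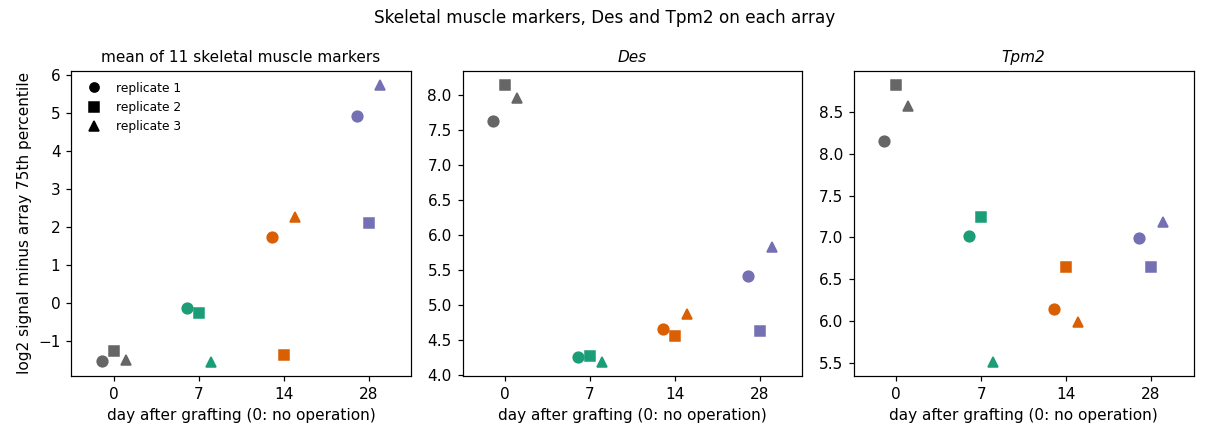
Mean log2 signal of 11 skeletal muscle markers (left), Des (middle) and Tpm2 (right) on each array, relative to the array's 75th percentile, by day after grafting (day 0, no operation). Points are arrays, with shapes for replicates 1 to 3. The marker mean reaches 2.11 to 5.75 at day 28, and Des at day 28 stands at 4.63 to 5.83.

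The genes with profiles most like the mean of the members over the 12 arrays, by Pearson's r among 12126 genes, were Sort1 (0.997), Dgkb (0.995), Inpp4a (0.993), Gtf2a1l (0.992), Spink8 (0.991) and Olfml1 (0.991). The 12 arrays fall into day 0 and graft arrays, so these values mostly reflect that separation. Sort1, sortilin, was at -0.26 in graft and 1.95 in day 0 arrays, and like all members but Des it was lowest at day 14, at -0.74. Dgkb, a diacylglycerol kinase, was at -2.96 in graft and 2.89 in day 0 arrays. Spink8, named as a serine protease inhibitor, was at -1.12 in graft and 5.27 in day 0 arrays. Among the members, Lmod1 followed the mean of the others most closely (r = 0.984) and Smtn least (r = 0.700), over the same 12 arrays.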

How the data were processed

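Total RNA of 12 rat veins was labelled with Cy3 and hybridised to single-colour Agilent arrays, per the labels' protocols. In the scanner tables deposited by the authors, values are spot intensity after background correction in Agilent Feature Extraction 11.0.1.1 (named in the submitters' processing notes and the headers), and per the file headers the design was annotated on rn4. The authors also deposited a table of log2 values, judged log2 from the values, by a normalization that is not given in the sources used here; its column medians were all 7.16 and each column correlated best with its own array, so its scale and direction are settled and its centring is unknown. No per-sample column was left unused.

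Spots flagged as outliers were left out (7348 over the 12 arrays), log2 processed intensity was reduced by each array's 75th percentile over 42136 gene spots, and spots of a probe were averaged. Arrays had 71.9% to 82.6% of spots well above background, and the number of arrays limits precision. Of 24684 probes, 14294 had 1 symbol, 0 several and 10390 none, through RefSeq accessions on GRCr8. Probes well above background on at least 3 arrays (21063) were tested as 4 day means over the 12 arrays with limma 3.58.1 (R 4.3.3) (8 residual degrees of freedom), and the procedure was tested on simulated data. Permutation tests used SciPy 1.17.1. Scans came from the file headers. Replicates were numbered in accession order, since all labels carry the same number. Normexp (offset 50) was run on the median signal in place of the mean signal. Its values were then quantile normalized, so it is not separate from the quantile setting. The members, gene lists and marker lists (smooth muscle, endothelial, skeletal and cardiac muscle, macrophage, T and NK cell, adipocyte, fibroblast, pericyte, Schwann cell) were chosen with earlier results of these data known. Up to 4 genes of each list with the largest change among those called, relatives of the members, and the 6 genes with the most similar profile are named, and 1 gene that this rule picks is not reported here. Alternatives covered scaling, background correction, the authors' table, dim-probe filters, scan blocks, array weights, the samples in the fit and leaving out each array.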

Additional observations from a re-analysis of the deposited data

Results flagged for a closer look

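Lmod1 between day 28 and day 14 was picked out because its change between 2 graft days passed the test. The difference was 1.59 ± 0.35 (standard error, limma adjusted p = 0.0327). All 3 day 28 arrays lay above all 3 day 14 arrays, as for 22.7% of probes. The call was lost with scan as a fixed block (limma adjusted p = 0.158). It was also lost without day 7 replicate 1 and without any single day 14 or day 28 array, so a difference with time is not settled. Over 24 alternative settings the difference ran from 1.25 to 1.78, and 16 of them called it. Among these the setting that averages probes repeats the main fit. Single arrays could not be tested as outliers with 3 arrays a day.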

How the results depend on the processing

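No member changed sign in any comparison with day 0 under any of the alternatives run. Against day 0, 10, 10 and 9 members were called at days 7, 14 and 28 and 10 for the mean of the graft days. With scan as a fixed block these counts were 0, 4, 4 and 3, while the share of all probes called fell to 0.266%, 4.91%, 6.48% and 2.89%, against 33.1%, 37.5%, 33.9% and 43.2% without it; scan and day overlap only in part, and what this loss rests on was not tested. The fit on the compared arrays alone, which leaves fewer samples, called 6 at day 7 (13.7% of all probes). Quantile normalization, normexp and the authors' table each called 8, 10 and 8. Normexp includes quantile normalization, so its counts are not separate from the first. Leaving out 1 array at a time gave 9 to 10, 10 and 8 to 10, where 23.8% to 37.4%, 27.2% to 42.2% and 21.7% to 39.9% of all probes were called. Day 28 fell to 8 without day 0 replicate 2 (29.6%) or day 28 replicate 2 (24.3%). The share of all probes called stands in parentheses beside counts between graft days. Between day 14 and day 7, 0 were called (3.26% of all probes), against 1 with the array median (3.48%), 7 with array quality weights (51.6%), 3 without the arrays with many non-uniform spots (11.5%), and 0 to 3 with 1 array left out (1 without day 0 replicate 1, 4.33%, and 3 without day 7 replicate 3, 6.0%). Between day 28 and day 14, 1 was called (4.48%), against 0 with the fixed block (0.589%), 9 with array weights (78.2%), 3 without the non-uniform arrays (22.8%), 4 on the compared arrays alone (30.2%) and 0 to 3 with 1 array left out (0.774% to 10.8%). Between day 28 and day 7, 0 were called (1.78%), against 1 with the array median (2.3%), 1 with array weights (65.3%) and 0 to 1 with 1 array left out (1 without day 28 replicate 2, 1.46%). Why these counts moved was not tested. The comparison of each member with the others called 0 under normexp, in the authors' table and without any 1 graft array; with a graft array left out the smallest p is 0.0121, which passes after adjustment only where 3 members share it, so these counts of 0 say nothing about stability. Leaving out a day 0 array, alone or with the other non-uniform array, was not run there, since the smallest p is then at least 0.0364. Averaging the probes of a gene was not a separate fit, because each member has 1 probe. That setting repeats the main fit and is still counted among the alternative settings. Of the 18 pairs with relatives, the member's change was the lower one in 17 under normexp and in 16 in the authors' table, alternatives chosen after seeing the data. As above, such counts are no result about the relatives. No paired analysis was possible because every label carries the same replicate number and the numbers used here were given in accession order. All 10 members were well above background on every array, and their precision is limited by the number of arrays. For Myocd it is also limited by dim signal at day 14 and on day 7 replicate 3.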
